A study of Homo sapiens with 6 samples.

Results

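EEF1A1, EEF1A2 and the processed pseudogene EEF1A1P16 are 3 of the 16834 genes in the deposited table, and were taken from it by their symbols. They were chosen by their measured normalized counts, with the contrast of HA-IPs and Flag-IPs in view, so the difference of each between the IPs is given as a description with its standard error (SE) and without a test. The data are RNA-seq libraries from 3 Flag-IPs and 3 HA-IPs of HEK293-T Flp-In cells, a derivative of human embryonic kidney cells that carries a site for recombination, which stably express ccTaggedRP. All 6 libraries come from asynchronously cycling cells of this line, labelled as kidney and epithelial-like, with no drug given to arrest the cycle. The ccTaggedRP construct was inserted as a single copy and is driven by the CAG promoter. It encodes 2 copies of the ribosomal protein RPL10a on 1 bicistronic mRNA, and both groups carry both. Flag-RPL10a-hCdt carries a degron from CDT1 and is degraded from late S phase to mitosis. HA-RPL10a-hGem carries a degron from geminin and is degraded from late G1 into early S phase. The comparison therefore asks which mRNAs are recovered with ribosomes tagged in different phases of the cell cycle. Neither the labels nor the methods say whether the 3 libraries of a group came from separate cultures, so the p-values given for other genes measure the spread between these libraries, which may be technical.

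The elongation factor eEF1A is a GTPase that carries aminoacyl-tRNA to the A site of the ribosome and leaves it as eEF1A-GDP. The exchange factor eEF1B, made of EEF1B2, EEF1D and EEF1G together with the valyl-tRNA synthetase VARS1, reloads it with GTP, and EEF2 then moves the ribosome along the mRNA. EEF1A1 encodes the isoform found in nearly all cells and is a classic member of the 5′ TOP mRNAs, whose translation follows growth signals. EEF1A2 encodes a closely related isoform known from heart, skeletal muscle and neurons. The EEF1A1 mRNA has been copied back into the human genome many times as processed pseudogenes, which lack introns, and EEF1A1P16 is one of these copies.

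Each library held 23174532 to 44134833 reads on the listed genes. The values are normalized counts, which the authors obtained by scaling the reads of each gene with one size factor for each library. Of all 16834 genes, 12.9% passed an adjusted p of 0.05 between the IPs in limma with Benjamini-Hochberg adjustment, 5.79% higher in the HA-IPs and 7.1% higher in the Flag-IPs. With every library scaled to the same total, the share of called genes that were higher in the HA-IPs moved from 44.9% to 23.0%. The 3 Flag-IPs also held RNA of heart muscle genes, and HA-IP 3 stood apart from the other HA-IPs in these genes. Their summed normalized counts were 214331, 156696 and 103234 in the Flag-IPs, and 4614, 3249 and 21281 in HA-IP 1, HA-IP 2 and HA-IP 3. The summed markers of HEK293-T cells ran from 70237 to 76836 over the libraries. NEFL (27352 to 29469) and VIM (21676 to 27004.5) held much of this sum, so it says little about the other markers.

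In GRCh38 with the GENCODE 44 annotation, EEF1A1 (ENSG00000156508) lies on the minus strand at chr6:73489308-73525587. Its canonical transcript has 8 exons, 3512 bases and 462 codons. EEF1A2 (ENSG00000101210) lies on the minus strand at chr20:63488013-63499239, and its canonical transcript has 8 exons, 1773 bases and 463 codons. The transcripts differ in base composition, with 42.5% G and C in EEF1A1 and 64.6% in EEF1A2. EEF1A1P16 (ENSG00000213235) is a single exon of 1414 bases on the plus strand at chr12:16990670-16992083 and contains 45.3% G and C.

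The sequences show how far reads of the 3 loci could be told apart. The following 150 bases, 1 read length, are coding bases 553 to 702 of EEF1A1 and their counterparts, shown because EEF1A1P16 differs most from EEF1A1 here among the stretches without insertions or deletions in the printed loci. Capitals mark bases that differ from EEF1A1, each sequence runs 5′ to 3′ along the coding direction, and all were read from GRCh38. EEF1A1 is spliced from chr6:73518768-73519000 (minus strand) and EEF1A2 from chr20:63493207-63494873 (minus strand). EEF1A1P16 lies at chr12:16991222-16991371 (plus strand), EEF1A1P17 at chr12:43660266-43660415 (plus strand) and EEF1A1P10 at chr7:144647873-144648022 (minus strand).
EEF1A1: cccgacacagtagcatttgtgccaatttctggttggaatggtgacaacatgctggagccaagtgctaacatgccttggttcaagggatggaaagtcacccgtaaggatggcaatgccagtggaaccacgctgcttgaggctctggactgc
EEF1A1P16: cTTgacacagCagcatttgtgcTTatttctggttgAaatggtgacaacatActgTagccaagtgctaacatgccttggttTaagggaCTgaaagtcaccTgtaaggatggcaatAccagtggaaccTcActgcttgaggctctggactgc
EEF1A1P17: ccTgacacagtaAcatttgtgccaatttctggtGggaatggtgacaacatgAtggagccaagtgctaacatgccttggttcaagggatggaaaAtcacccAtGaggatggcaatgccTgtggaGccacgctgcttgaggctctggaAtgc
EEF1A1P10: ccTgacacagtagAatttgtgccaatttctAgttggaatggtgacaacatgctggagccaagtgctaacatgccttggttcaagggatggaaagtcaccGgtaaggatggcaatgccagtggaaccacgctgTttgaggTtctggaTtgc
EEF1A2: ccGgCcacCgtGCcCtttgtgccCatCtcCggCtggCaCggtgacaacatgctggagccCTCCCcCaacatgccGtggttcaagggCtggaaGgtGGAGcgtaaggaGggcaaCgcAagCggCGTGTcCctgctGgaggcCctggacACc
In this stretch EEF1A1P16 differed from EEF1A1 at 15 bases, EEF1A1P17 at 10, EEF1A1P10 at 7 and EEF1A2 at 39. The next 150 bases, coding bases 234 to 383 (EEF1A1 spliced from chr6:73519170-73519427, minus strand, and EEF1A1P16 at chr12:16990903-16991052, plus strand), are shown as the stretch where EEF1A1P16 comes closest to EEF1A1, with 4 differences.
EEF1A1: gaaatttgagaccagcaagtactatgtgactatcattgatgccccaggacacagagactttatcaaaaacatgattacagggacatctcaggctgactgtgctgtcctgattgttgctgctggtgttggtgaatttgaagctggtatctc
EEF1A1P16: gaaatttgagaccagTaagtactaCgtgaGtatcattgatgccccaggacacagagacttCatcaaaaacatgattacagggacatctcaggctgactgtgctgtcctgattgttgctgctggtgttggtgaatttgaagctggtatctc

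Over its whole length EEF1A1P16 aligned with 1413 bases of the EEF1A1 mRNA and differed at 103 of them, an identity of 92.7%. None of its 1265 windows of 150 bases was identical to EEF1A1, and the median window held 12 differences, with a range of 4 to 26. Against the nearest other locus among the 50 of the family searched in GENCODE 44, the median window held 11 differences and 0 windows were identical. The search left out 1 chromosome, so a nearer locus there would not have been seen. A read of full length from EEF1A1P16 therefore carried several bases that EEF1A1 lacks, although sequencing errors and trimmed reads can still move reads between the loci, so the pseudogene's values remain less certain than those of EEF1A1. In the frame of EEF1A1, the pseudogene had 11 deleted bases, 1 inserted base and 6 stop codons, the first at codon 48.

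A smaller share of the mismatches of EEF1A1P16 fell on the third base of a codon than of those between the protein-coding isoforms. The coding sequence of EEF1A2 was 78.9% identical to that of EEF1A1, and 248 of its 293 mismatches (84.6%) fell on the third base of a codon. Of the 100 coding mismatches of EEF1A1P16, 39 fell on the third base and 73 were transitions. EEF1A1P16 shared 24 of these bases with the pseudogene EEF1A1P15, 22 with EEF1A1P10, 21 with EEF1A1P17, 18 with EEF1A1P7 and 14 with EEF1A2.

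**Figure D1:**
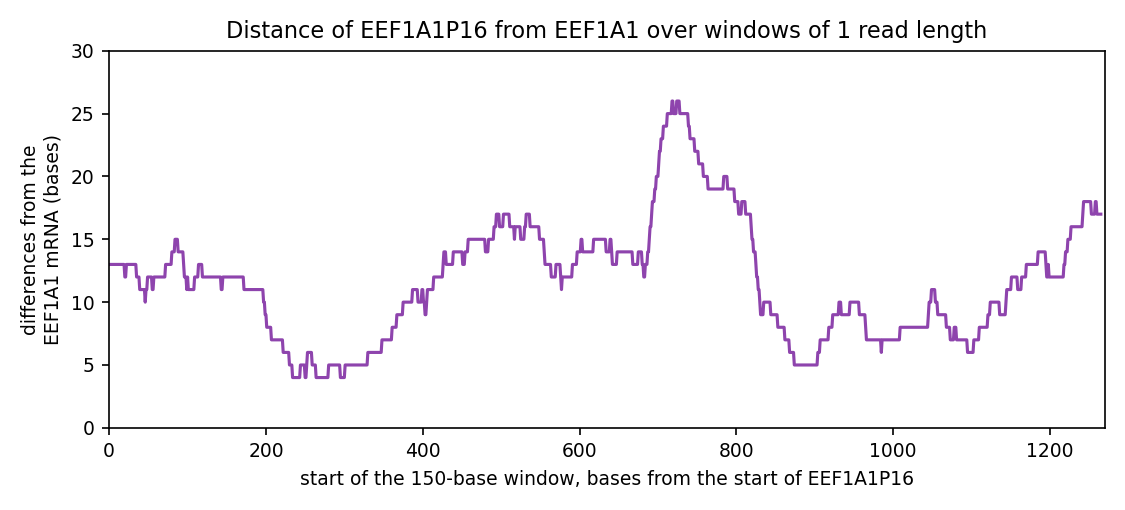
Number of bases that differ between EEF1A1P16 and the EEF1A1 mRNA in each window of 150 bases (y axis, bases), by the distance of the window's start from the start of the pseudogene (x axis, bases). The line stays between 4 and 26 and reaches 0 in no window.

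EEF1A1 was among the most abundant mRNAs of both IPs and differed little between them. Its normalized counts were 230158, 219959 and 205812 in the Flag-IPs, against 232579, 212679 and 224840 in the HA-IPs. The groups overlapped, with HA-IP 1 highest and Flag-IP 3 lowest. The means were 218643 ± 12226 and 223366 ± 10031 (SD, n = 3 each), with HA-IPs over Flag-IPs at a log2 fold change of 0.03 (SE 0.07). EEF1A1 ranked 1 or 2 by normalized count in every library and took 0.667 to 0.765% of the normalized total. Its log2 fold change stayed between -0.02 and 0.07 in all 16 alternatives of the fit, which include either sign. A mean of at least 50, no variance trend and the replicate block could not change this value. Quantile normalization keeps only ranks, which were alike in both IPs, so it could show no difference either.

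EEF1A2 was lower in the HA-IPs. Its normalized counts were 10135, 9143 and 7801 in the Flag-IPs, against 3880, 3685 and 4194 in the HA-IPs. All Flag-IPs lay above all HA-IPs, as they did for 16.1% of all genes (32.2% in either direction), and the Flag-IPs spread more widely. The means were 9026 ± 1171 and 3919 ± 256 (SD, n = 3 each), with a log2 fold change of -1.20 (SE 0.08), or 2.29-fold higher in the Flag-IPs. EEF1A2 ranked 484 to 743 by count in the Flag-IPs and 1704 to 1984 in the HA-IPs. Of all genes, 479 (2.85%) had a lower log2 fold change, and 17 of the 5959 genes that averaged 1000 normalized counts or more did.

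EEF1A1P16 differed most of the 3 loci. Its normalized counts were 518, 439 and 276 in the Flag-IPs, against 29.6, 41.6 and 39.7 in the HA-IPs. The lowest Flag-IP lay well above the highest HA-IP, and all Flag-IPs lay above all HA-IPs for 16.1% of all genes (32.2% in either direction). These values rest on 399, 413 and 299 reads in the Flag-IPs, against 42, 42 and 36 reads in the HA-IPs, and the exact 95% Poisson intervals ran from 266 to 455 reads over the Flag-IPs and from 25.2 to 56.8 over the HA-IPs. These intervals cover counting error only. The means were 411 ± 124 and 37.0 ± 6.43 (SD, n = 3 each), with a log2 fold change of -3.41 (SE 0.23), or 10.6-fold higher in the Flag-IPs. In the table, 133 genes (0.790%) had a lower log2 fold change. In these bulk IPs, fewer cells that contain an RNA and less of that RNA per cell or per tagged ribosome cannot be told apart.

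**Figure D2:**
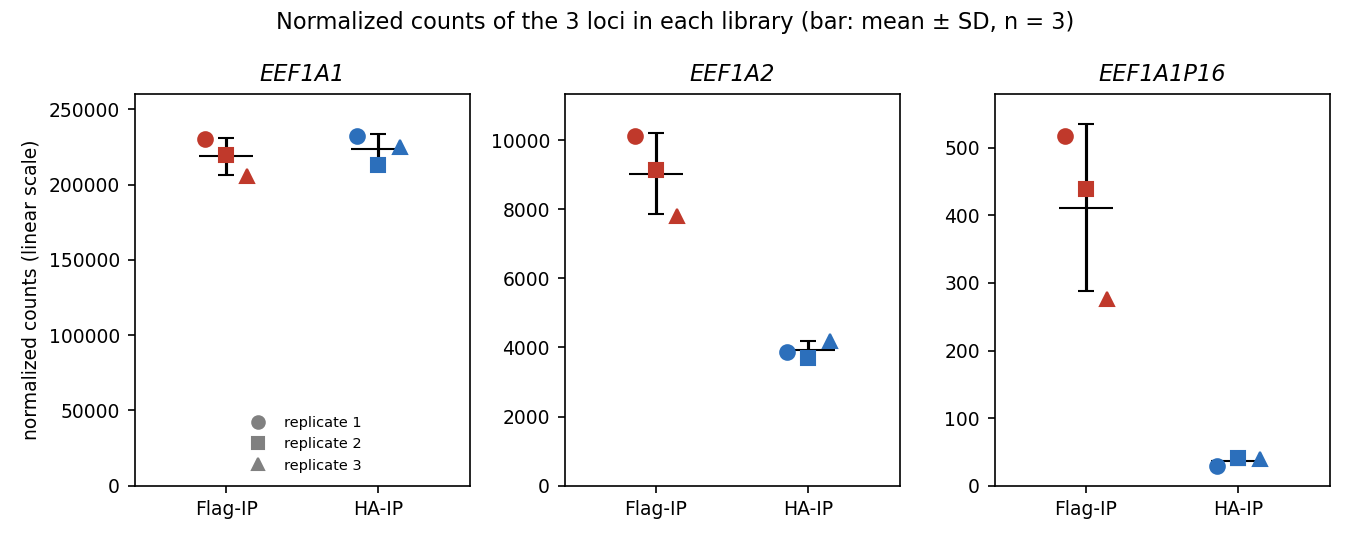
Normalized counts (y axes, linear and starting at 0) of EEF1A1, EEF1A2 and EEF1A1P16 in the 3 Flag-IPs (red) and 3 HA-IPs (blue), where each symbol is 1 library and bars are mean ± SD. The groups overlap for EEF1A1, and all Flag-IPs lie above all HA-IPs for EEF1A2 and EEF1A1P16.

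Ratios within a library do not depend on its scaling. Per kb of canonical transcript, the mean level of EEF1A1 was 62256 ± 3481 normalized counts in the Flag-IPs and 63601 ± 2856 in the HA-IPs, and that of EEF1A2 was 5091 ± 660 and 2211 ± 145 (SD, n = 3 each). In both IPs the order per kb was EEF1A1, EEF1A2 and EEF1A1P16, and the gaps between neighbours were larger than the spread between libraries. The level of EEF1A2 per kb was 8.72, 8.23 and 7.51% of that of EEF1A1 in the Flag-IPs, against 3.30, 3.43 and 3.69% in the HA-IPs. This ratio had means of 8.15 ± 0.611% and 3.48 ± 0.199% (SD, n = 3 each) and was 2.34-fold higher in the Flag-IPs. The percentages depend on the canonical lengths of 3512 bases for EEF1A1 and 1773 for EEF1A2, whose coding sequences have 1389 and 1392 bases. Which transcript lengths were expressed was not checked, and the fold does not depend on them.

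EEF1A1P16 gave 225, 200 and 134 reads per 100000 reads of EEF1A1 in the Flag-IPs, against 12.7, 19.6 and 17.7 in the HA-IPs. The means of this ratio were 186 ± 47.0 and 16.7 ± 3.52 (SD, n = 3 each), 11.1-fold higher in the Flag-IPs. The ratio did not overlap between the IPs, and its spread within each IP was far smaller than the gap between them.

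The markers of heart muscle moved with EEF1A2 and EEF1A1P16. Of 26 listed genes, 22 were in the table, and 20 of these were called higher in the Flag-IPs (limma), where 7.1% of all genes were, with a median log2 fold change of -4.21 against -0.0049 for all genes. MYL7, NPPA, NPPB and PLN were not in the table, no marker was at 3 reads or fewer in all libraries, and the transcription factors NKX2-5 and TBX20 did not pass the test. The 4 with the highest mean in the Flag-IPs were the myosin heavy chain MYH7 (log2 fold change -5.37, adjusted p = 0.00097), the actin ACTA1 (-5.42, adjusted p = 0.0016), the myosin heavy chain MYH6 (-5.17, adjusted p = 0.0027) and the troponin TNNC1 (-4.82, adjusted p = 0.0026). These log2 fold changes were larger in size than those of EEF1A2 and EEF1A1P16.

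In the Flag-IPs, replicate 1 was highest and replicate 3 lowest for the heart muscle sum, for EEF1A2 and for EEF1A1P16, but the ratio of highest to lowest was 2.08 for the sum, 1.88 for EEF1A1P16 and 1.30 for EEF1A2. In the HA-IPs the same ratio was 6.55 for the heart muscle sum, 1.14 for EEF1A2 and 1.40 for EEF1A1P16. HA-IP 3, with the highest sum of heart muscle markers, had the highest EEF1A2 but not the highest EEF1A1P16. Without HA-IP 3, the log2 fold change was -1.25 for EEF1A2 and -3.46 for EEF1A1P16, and 20 heart muscle markers were again called. The part of heart muscle RNA in these differences was not tested.

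**Figure D3:**
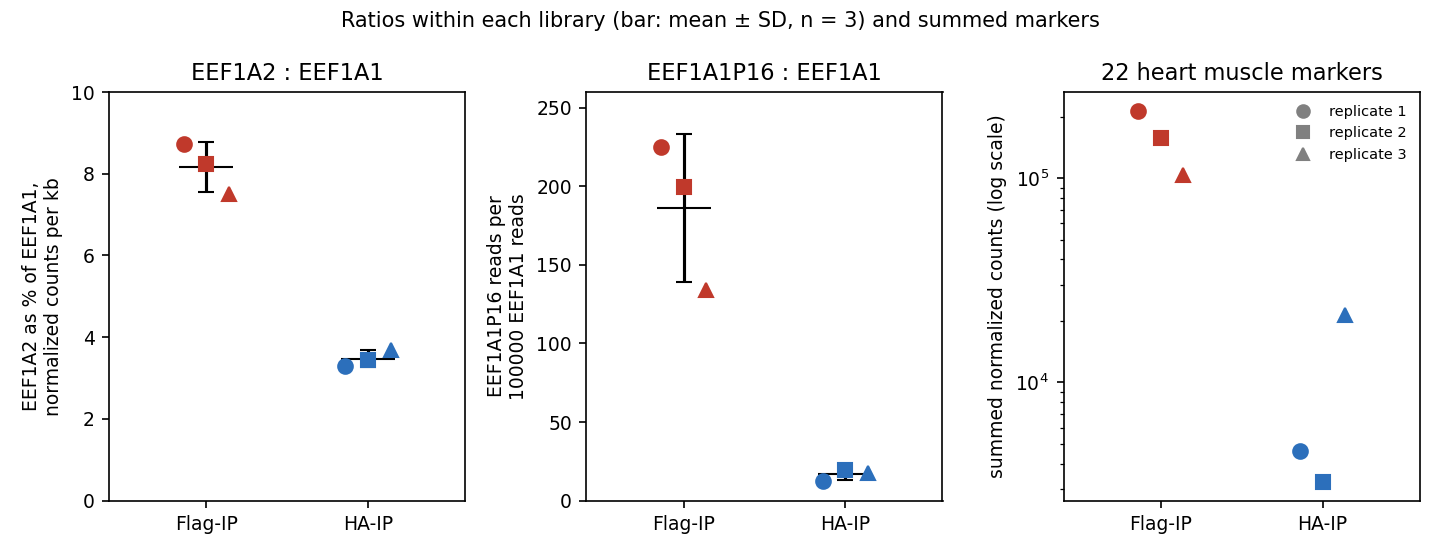
EEF1A2 as a percentage of EEF1A1 per kb (left), EEF1A1P16 reads per 100000 EEF1A1 reads (middle) and summed normalized counts of 22 heart muscle markers on a log axis (right) in each Flag-IP (red) and HA-IP (blue), where bars on the left and in the middle are mean ± SD (n = 3). HA-IP 3 stands above the other HA-IPs in the marker sum at 21281, while its ratios lie close to theirs, at 3.69% and 17.7 reads.

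The marker lists of other cells gave mixed counts. Of 16 neuronal genes 13 were in the table and 0 were called by limma, edgeR or DESeq2, with 0 at an unadjusted p under 0.05, and their sum ran from 28846 to 31006 normalized counts over the 6 libraries. NEFL, which is also on the list of HEK293-T markers, held 27352 to 29469 of this sum, so the sum says little about the other genes of the list. Of 15 genes of fast skeletal muscle 4 were in the table and 1, CASQ1, was called higher in the Flag-IPs (lost without Flag-IP 2 or without HA-IP 2), and MYOD1, MYOG and ACTN3 were not in the table. CASQ1 and the genes in the next sentences were named after their values were seen. Limma called 7.1% of all genes higher in the Flag-IPs and 5.79% higher in the HA-IPs. Of the fibroblast markers, 6 of 8 in the table were called higher in the Flag-IPs and 1 higher in the HA-IPs. Of the endothelial markers, 4 of 7 were called higher in the Flag-IPs, as was the 1 blood marker in the table, PTPRC. Of these calls, ENG was kept in 0 of 6 fits that each leave out a library, CLDN5, PDGFRB and FN1 in 1, without Flag-IP 3, and PTPRC in 2, without Flag-IP 1 or without Flag-IP 3. Of 8 HEK293-T markers PAX2 was called, higher in the Flag-IPs, and it was called in 0 of the 6 fits that leave out a library. Of 8 markers of the mature kidney 3 were in the table, with SLC34A1 and SLC12A1 higher in the Flag-IPs and LRP2 higher in the HA-IPs. SLC34A1 and SLC12A1 kept their call in 6 of the 6 such fits, and LRP2, whose groups overlapped, in 1, without Flag-IP 3.

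EEF1A1P16 was not alone among the copies of EEF1A1. The table names 3 others, which are EEF1A1P17, EEF1A1P10 and EEF1A1P19. Of these, 2 were called higher in the Flag-IPs (limma), where 7.1% of all genes were. EEF1A1P17 had normalized counts of 94.8, 65.9 and 61.8 in the Flag-IPs, against 6.35, 7.92 and 12.1 in the HA-IPs, a log2 fold change of -2.96 (SE 0.32, adjusted p = 0.00040). EEF1A1P10 had 31.2, 30.8 and 20.3 in the Flag-IPs, against 2.82, 3.96 and 2.21 in the HA-IPs, a log2 fold change of -2.83 (SE 0.43, adjusted p = 0.0025). The groups of both were clearly separate, at low read numbers, and 16.1% of all genes had all Flag-IPs above all HA-IPs. EEF1A1P19 had 11.7, 23.4 and 25.8 in the Flag-IPs, against 16.2, 11.9 and 14.3 in the HA-IPs, so that the groups overlapped, with a log2 fold change of -0.43 (SE 0.39, adjusted p = 0.53).

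A further 8 copies had no symbol in the table and were matched by Ensembl identifier after the data had been seen. Of the 11 copies besides EEF1A1P16, 9 were called higher in the Flag-IPs and 0 higher in the HA-IPs, against 7.1% and 5.79% of all genes. The log2 fold changes of the 11 copies ran from -3.37 to -0.43. All 9 had Flag-IPs above the HA-IPs without overlap (16.1% of all genes), and EEF1A1P11 and EEF1A1P19 had overlapping groups. All copies share their origin, and closely related ones can share reads, so they are not independent of each other. Among 425 processed pseudogenes of any gene in the table, limma called 183 (43.1%) higher in the Flag-IPs and 0 higher in the HA-IPs. The shares of all genes were 7.1% and 5.79%. The median log2 fold change of these pseudogenes was -0.86.

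The copies spread over a wide range of identities to EEF1A1. The 5 copies with an identity under 94%, EEF1A1P16 included, had log2 fold changes from -3.41 to -2.83, and the 7 copies with a higher identity had values from -3.26 to -0.43, so that the ranges overlapped. Across the 12 copies, Pearson's r between identity and log2 fold change was 0.668 and Spearman's rho was 0.594, as a description over points that share libraries and parent sequence. In 2 of the first set, EEF1A1P7 and EEF1A1P15, an HA-IP held as little as 1 read, so their fold changes depend on the pseudocount. The copies nearest to EEF1A1 were EEF1A1P6 and EEF1A1P5, with 39.5% and 51.6% of windows of 150 bases identical to the parent mRNA. Reads from such windows cannot be assigned to 1 locus, and the values of both are uncertain for this reason.

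EEF1A1P5 was the most abundant copy. Its coding sequence holds no stop codon before the end in the frame of EEF1A1, nor do those of EEF1A1P6, EEF1A1P12 and EEF1A1P13. The normalized counts of EEF1A1P5 were 4814, 3604 and 2611 in the Flag-IPs, against 1578, 1288 and 1486 in the HA-IPs. This was a log2 fold change of -1.30 (SE 0.17, adjusted p = 0.00092, limma). All Flag-IPs lay above all HA-IPs, as for 16.1% of all genes. EEF1A1P12, at an identity of 97.5%, had 195, 139 and 77.5 in the Flag-IPs, against 11.3, 12.9 and 13.2 in the HA-IPs, a log2 fold change of -3.26 (adjusted p = 0.00021). Together the 12 copies made up 2.73, 2.19 and 1.71% of the normalized counts of EEF1A1 and its copies in the Flag-IPs, against 0.791, 0.731 and 0.789% in the HA-IPs. Adding all of them to EEF1A1 changed the ratio of EEF1A2 to EEF1A1 little, to 7.97 ± 0.556% in the Flag-IPs and 3.45 ± 0.197% in the HA-IPs (SD, n = 3 each).

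**Figure D4:**
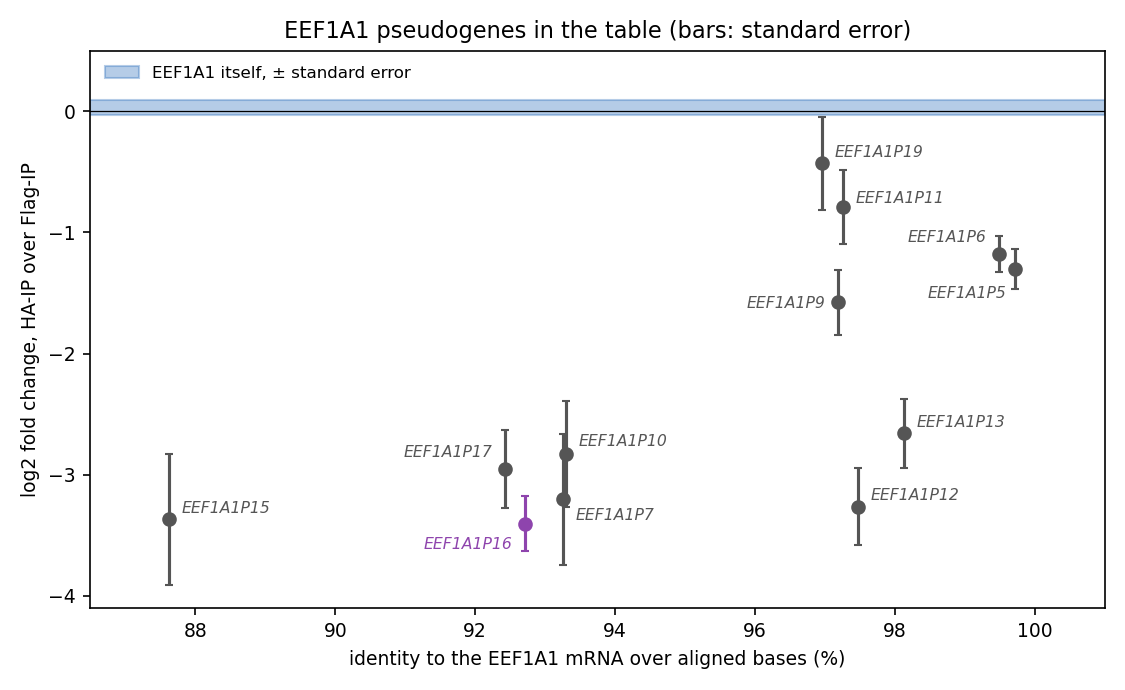
Log2 fold change, HA-IPs over Flag-IPs (y axis, bars are standard errors) of 12 EEF1A1 pseudogenes by their identity to the EEF1A1 mRNA (x axis, percent), with EEF1A1P16 in purple and EEF1A1 itself as a blue band of ± 1 standard error. The 5 copies under 94% identity lie between -3.41 and -2.83, and the others spread from -3.26 to -0.43.

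The partners of eEF1A in elongation and the factors of termination moved little. Of 18 elongation and release factors, 3 were called higher in the HA-IPs and 0 higher in the Flag-IPs (limma), where 5.79% and 7.1% of all genes were, with a median log2 fold change of -0.04. The Flag-IP side depended on the fit: it held 3 calls beside 3 on the HA-IP side with equal totals, 2 beside 3 with quantile normalization and 2 beside 4 with DESeq2. Of the subunits of the exchange factor, EEF1B2, which swaps GDP for GTP on eEF1A, had 4084, 3391 and 3090 normalized counts in the Flag-IPs, against 2561, 2856 and 3089 in the HA-IPs. The lowest Flag-IP and the highest HA-IP were nearly equal, and the log2 fold change of -0.31 (SE 0.10) did not pass the test (adjusted p = 0.056). EEF1D, the other exchange subunit, had a log2 fold change of -0.06 (SE 0.05, adjusted p = 0.44). The scaffold subunit EEF1G held only 4.94 to 18.7 normalized counts per library and had a log2 fold change of -0.32 (SE 0.50, adjusted p = 0.74). An unnamed protein-coding gene on the same strand, ENSG00000255508, overlaps EEF1G with a mean of 89.4 normalized counts, so the counts of EEF1G are uncertain.

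EEF2 was nearly as abundant as EEF1A1 by count, with 157861, 165808 and 177667 normalized counts in the Flag-IPs, against 189403, 192896 and 187321 in the HA-IPs. All HA-IPs lay above all Flag-IPs, as for 16.1% of all genes. The log2 fold change of 0.19 (SE 0.06) did not pass the test (adjusted p = 0.069). Those called higher in the HA-IPs were GSPT1 and GSPT2, which encode forms of the release factor eRF3, and VARS1. GSPT1 had 11131, 11302 and 12314 in the Flag-IPs, against 14064, 14378 and 14638 in the HA-IPs, a log2 fold change of 0.31 (SE 0.05, adjusted p = 0.0033). GSPT2 had a log2 fold change of 0.29 (adjusted p = 0.020) and VARS1 of 0.27 (adjusted p = 0.014). GSPT1 kept its call whichever library was left out, whereas GSPT2 and VARS1 each kept it in 2 of the 6 such fits, and lost it without Flag-IP 2 or without any 1 HA-IP. Without each of these 4 libraries the list held 1 call, and without Flag-IP 3 it held 7, 4 higher in the HA-IPs and 3 higher in the Flag-IPs.

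**Figure D5:**
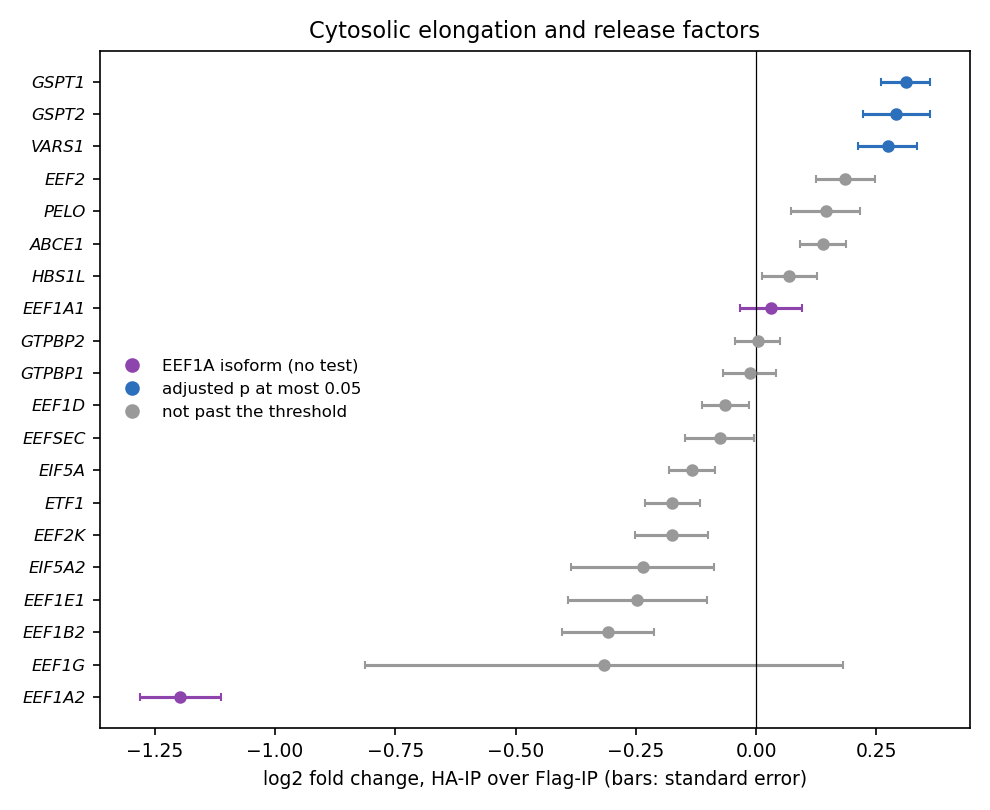
Log2 fold change, HA-IPs over Flag-IPs (x axis, bars are standard errors) of 18 elongation and release factors and of EEF1A1 and EEF1A2 (purple, no test), with genes at an adjusted p of at most 0.05 in blue and the others in grey. EEF1A2 lies at -1.20, apart from all other factors, which lie between -0.32 and 0.31.

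Of the enzymes that methylate or otherwise modify eEF1A, EEF2, EIF5A and the release factor, 15 of 16 were in the table, and 1 was called in each direction (limma, median log2 fold change -0.06), a share close to the 12.9% of all genes. METTL13, which methylates eEF1A at its N terminus and at a lysine, had a log2 fold change of 0.19 (SE 0.05, adjusted p = 0.035). DPH2, which takes part in making diphthamide on EEF2, had a log2 fold change of -0.24 (SE 0.05, adjusted p = 0.014). METTL13 kept its call in 1 of the 6 fits that leave out a library (lost unless Flag-IP 3 was the one left out) and DPH2 in 3 (lost without Flag-IP 2, HA-IP 1 or HA-IP 2). Of 9 mitochondrial elongation and release factors 1 was called, also a share close to that of all genes. GFM1, which moves mitochondrial ribosomes along the mRNA, was higher in the HA-IPs, with a log2 fold change of 0.18 (SE 0.05, adjusted p = 0.041), and it kept this call only when Flag-IP 3 was left out.

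EEF1A1 is a 5′ TOP mRNA, and the other TOP mRNAs that do not encode ribosomal proteins gave a mixed picture. Of 19, 4 were called higher in the Flag-IPs and 1 higher in the HA-IPs (limma), where 7.1% and 5.79% of all genes were, with a median log2 fold change of -0.01. This balance depended on the fit, with 5 higher in the Flag-IPs and 3 higher in the HA-IPs by DESeq2, and 3 and 4 once trends with GC content and length were removed. TPT1, which encodes the translationally controlled tumour protein, had 17324, 10816 and 8486 normalized counts in the Flag-IPs, against 3642, 3752 and 5218 in the HA-IPs. All Flag-IPs lay above all HA-IPs, as for 16.1% of all genes, and the log2 fold change was -1.49 (SE 0.21, adjusted p = 0.0015). The nuclear import receptor IPO7 had a log2 fold change of 0.25 (adjusted p = 0.0080), and the initiation factor subunit EIF3L of -0.20 (adjusted p = 0.024). The other called genes were the prefoldin subunit PFDN5 (-0.44, adjusted p = 0.038) and the initiation factor subunit EIF3H (-0.36, adjusted p = 0.046), named after their values were seen. TPT1 kept its call whichever library was left out and IPO7 lost it only without Flag-IP 2. EIF3L lost it without Flag-IP 2, HA-IP 2 or HA-IP 3, and PFDN5 and EIF3H kept it only without Flag-IP 3. The list held 1 call without Flag-IP 2, 2 without HA-IP 2 or without HA-IP 3, 3 without Flag-IP 1 or without HA-IP 1, and 9 without Flag-IP 3.

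The genes most like each locus were picked among 11635 genes with a symbol and a mean of at least 100 normalized counts. Likeness was measured over the 6 libraries by the root mean square difference of centred log2 values. The pick used the values of the contrast itself, so any likeness in the difference between the IPs is built in and was not tested. The genes closest to EEF1A1 were GGT7, PCDH18, NETO2, SNX4 and SPTLC1, all with overlapping groups. The genes closest to EEF1A2 were FLNC, MMP14, GABARAP, NEB and PKIA. FLNC, which encodes a filamin of striated muscle, had 3040, 2520 and 2000.6 normalized counts in the Flag-IPs, against 1033, 1010 and 1124 in the HA-IPs, and differed from EEF1A2 by a root mean square of 0.07 on the log2 scale. NEB encodes nebulin, a thin filament protein of muscle, and GABARAP a protein of autophagosomes. The genes closest to EEF1A1P16 were IGFBP7, RPLP0P6, KCNJ4, RPL24P4 and FRZB, of which RPLP0P6 and RPL24P4 are processed pseudogenes of ribosomal protein genes. IGFBP7, which encodes a secreted protein that binds growth factors, had 1280, 1125 and 802 normalized counts in the Flag-IPs, against 60.7, 94.1 and 139 in the HA-IPs.

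Few genes next to the 3 loci were in the table. Within 100 kb of EEF1A1, 3 of 12 annotated genes were in the table and 0 were called by limma. The nearest were CGAS at 37011 bases on one side, SLC17A5 at 67792 bases on the other and MTO1, which overlaps EEF1A1 on the opposite strand and had a log2 fold change of 0.08 (adjusted p = 0.40). Within 100 kb of EEF1A2, 5 of 11 annotated genes were in the table. Of these 1 was called, PPDPF, at 21526 bases, higher in the Flag-IPs (log2 fold change -0.38, adjusted p = 0.048). This lies close to the threshold, and fits that leave out a library are not given for it. Of all genes 12.9% were called, and so few neighbours cannot show a departure from this share. Of the 4 annotated genes within 100 kb of EEF1A1P16, the nearest of which is the pseudogene SKP1P2 at 734 bases, 0 were in the table. The counting setting for strand was not given in the sources used here, so reads of EEF1A1 and of the overlapping MTO1 may not have been told apart.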

How the data were processed

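Polyadenylated RNA of 3 Flag-IPs and 3 HA-IPs was sequenced as paired reads of 150 bases. Per the methods and the submitters' processing notes, the authors trimmed reads (Trimmomatic 0.36), mapped them to GRCh38 (STAR 2.5.2b), counted them per gene (featureCounts, Subread 1.5.2), excluded genes with few reads and scaled libraries with DESeq2, for which the notes give 3.16. How reads with several best positions were counted was not given in the sources used here. The deposited values are a normalized signal, reads divided by a size factor. Division by the value of 1 read in each library gave whole reads for 100% of values (tolerance 0.01 read), so precision can be judged from reads. The authors' columns of log2 fold change and adjusted p-value were not used.

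All 16834 genes were fitted with limma 3.58.1 in R 4.3.3 on log2(value + 1), with a variance trend, two-sided, and Benjamini-Hochberg adjustment at 0.05. Fold changes are on this scale and understate those of low genes. edgeR 4.0.16 and DESeq2 1.42.0 ran on the recovered reads as alternatives. The fits were tested on simulated data with 200 changed genes. Sequences were read from GRCh38 and GENCODE release 44, which holds 16683 of the identifiers (99.1%), and aligned with biopython 1.88. Plots used matplotlib 3.10.9.

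The members and lists were chosen with earlier results of these data known. The genes named are the 3 members, the named EEF1A1 pseudogenes, EEF1B2, EEF1D, EEF1G, EEF2 and up to 6 further called elongation or release factors, up to 3 called genes of each other list, the 5 genes most like each member, the nearest neighbours and the 4 highest heart muscle markers. Other names were added after their values were seen. 1 gene under this rule is not reported here.

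Alternatives were pseudocounts of 0.1 and 10, a mean of at least 50, quantile normalization, equal totals, edgeR, DESeq2, no variance trend, the replicate number as a block and each library left out. Removal of trends with GC content and length (natural splines, 5 degrees of freedom) and matching of pseudogenes by identifier were added after seeing the data.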

Additional observations from a re-analysis of the deposited data

How the results depend on the processing

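The log2 fold changes of EEF1A2 (-1.30 to -1.11) and EEF1A1P16 (-3.67 to -3.13) kept their direction under all 16 alternatives, and that of EEF1A1 stayed between -0.02 and 0.07. Some of these alternatives cannot change a fold change and say nothing about its stability. They are a mean of at least 50, no variance trend and the replicate block. For the ratios of EEF1A2 and EEF1A1P16 to EEF1A1, the log2 difference of HA-IPs minus Flag-IPs ran from -1.29 to -1.18 and from -3.69 to -3.29. The 9 called pseudogenes of 11 matched by identifier, against 2 of 3 by symbol, numbered 7 without the variance trend and 4 with a mean of at least 50, which left 4 of them in the fit. Other counts moved, and the causes were not tested. Without the variance trend, limma called 188 genes in all (6 higher in the HA-IPs and 182 higher in the Flag-IPs), 1 heart muscle marker and 0 elongation and release factors, modifiers, mitochondrial factors or TOP mRNAs. Elongation and release factors numbered 5 with quantile normalization, 6 with equal totals, 5 with edgeR, 6 with DESeq2 and 7 with the trends of GC content and length removed. Modifiers numbered 1, 1 and 4, and mitochondrial factors 0, 0 and 2, with quantile normalization, equal totals and the trends removed, in this order. DESeq2 called 8 TOP mRNAs (3 higher in the HA-IPs and 5 higher in the Flag-IPs). Leaving out 1 library gave 620 to 3059 genes in all, with the fewest without Flag-IP 2 (103 higher in the HA-IPs and 517 higher in the Flag-IPs), against 780 without HA-IP 1, 900 without HA-IP 2 and 1216 without HA-IP 3. It gave 1 to 7 elongation and release factors, 0 to 3 modifiers, 0 to 2 mitochondrial factors, 1 to 9 TOP mRNAs, 14 to 20 heart muscle markers and 2 pseudogenes by symbol each time. Libraries with the same replicate number did not deviate together (r = -0.156, 0.031 and -0.310 over 13141 genes). With deviations from means of 3 libraries, this cannot show whether libraries of the same number share a culture. With the replicate block, 1662 genes, 0 mitochondrial factors and 3 TOP mRNAs were called. Depth limits EEF1A1P7, EEF1A1P10 and EEF1A1P15, with 1 to 6 reads per HA-IP.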
